A study of Mus musculus with 22 samples.

Results

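Immunoprecipitation of tagged ribosomes was compared with input in the mice infused with hTyr, the human form of tyrosinase, which makes melanin pigment from tyrosine. The comparison used 10 of the 22 libraries, an IP and an input library from each of 5 animals, chosen by treatment label and paired by the animal number in the titles. Animals are named here by the title of their IP library: IP_501, IP_502, IP_508, IP_509 and IP_510. Where 5 values follow each other, they are in this order. All animals, controls included, came from a cross of Th-cre mice with Slc6a2-eGFP/Rpl10a mice on a C57Bl/6 background. The 12 other libraries came from 6 animals of the same cross infused with EYFP, a fluorescent protein. The Slc6a2-eGFP/Rpl10a transgene places a tagged ribosomal protein in cells that use the regulatory sequences of Slc6a2. The pull-down is meant to enrich the IP library for RNA bound to ribosomes of those cells, labelled noradrenergic. The input library is the RNA before the pull-down, labelled total hindbrain. Age, sex, the vector and the time after infusion are not given in the sources used here. The deposited table held 12596 genes, and depth in it ran from 12654489 to 19043798 reads in the 5 IP libraries and from 18771136 to 25100142 reads in the 5 input libraries.

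Noradrenergic neurons of the hindbrain, most of them in the locus coeruleus, make noradrenaline from tyrosine. Tyrosine hydroxylase (Th) sets the rate, dopa decarboxylase (Ddc) makes dopamine, the vesicle transporter (Slc18a2) loads it and dopamine beta-hydroxylase (Dbh) turns it into noradrenaline inside the vesicle. The transporter encoded by Slc6a2 takes noradrenaline back up after release, and the homeodomain factor Phox2a helps to specify these cells during development.

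Promoters of Dbh and Th are shown because these genes were among those with the largest rises and because homeodomain and cAMP response motifs are textbook features of catecholamine genes. The sequences are the 250 bases before the annotated start (RefSeq, GRCm38.p6), read in the direction of transcription, at chr2:27165257-27165506 on the plus strand for Dbh and chr7:142899996-142900245 on the minus strand for Th. Capitals mark matches on either strand to TAAT, the core of many homeodomain sites, to the cAMP response element TGACGTCA, or to its short form TGACG, which the full element contains.
Dbh: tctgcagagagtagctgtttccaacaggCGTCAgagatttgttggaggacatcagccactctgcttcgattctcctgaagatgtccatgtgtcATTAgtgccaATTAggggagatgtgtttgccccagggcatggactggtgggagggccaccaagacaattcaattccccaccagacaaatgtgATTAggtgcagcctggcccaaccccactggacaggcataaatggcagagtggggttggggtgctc
Th: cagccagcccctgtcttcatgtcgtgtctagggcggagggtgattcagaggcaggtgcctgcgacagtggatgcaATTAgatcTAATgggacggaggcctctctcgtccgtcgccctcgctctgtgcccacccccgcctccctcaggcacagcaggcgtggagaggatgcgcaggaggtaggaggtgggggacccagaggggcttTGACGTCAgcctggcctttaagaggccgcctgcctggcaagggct
The Dbh window held 3 TAAT cores, at 157, 147 and 65 bases before the start, and 1 short form at 222. The Th window held the full element at 45 bases before the start and 2 TAAT cores, at 175 and 167. Over 12446 promoter windows of the same length, 2.65% held the full element, 26.4% the short form, 38.9% at least 1 TAAT core and 16.3% at least 2. The Ddc window, taken at 1 of its 2 annotated starts, held 3 TAAT cores, of which those at 53 and 51 overlap. The Slc18a2 window held 1, while those of Phox2a and Gal held no match to these letters. Such matches describe the sequence and were not tested for binding.

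Genes that define noradrenergic neurons rose most among named protein-coding genes in IP. On the log2 CPM scale (reads scaled to the size of the library), Slc6a2 stood at 7.61, 6.66, 6.01, 6.06 and 6.62 in IP against 2.07, 1.84, 2.19, 2.23 and 2.27 in their input. Every IP library lay above every input library, and the paired log2 change was 4.47 (SE 0.18, 95% interval 4.10 to 4.84, limma adjusted p = 7.12e-13), a 22.2-fold difference. Dbh stood at 8.31, 7.65, 6.81, 6.93 and 6.80 in IP and at 3.04, 2.98, 3.01, 3.13 and 2.85 in input. Its change was 4.30 (SE 0.16, adjusted p = 3.12e-13), and input levels were close together while IP levels spread over more than 1 unit, with animal IP_501 highest. Phox2a was low before the pull-down, at 0.77, -0.01, 0.52, 0.08 and 0.40, and reached 5.27, 4.45, 3.69, 3.67 and 3.76 in IP (change 3.82, SE 0.22, adjusted p = 5.21e-11). Galanin (Gal), a neuropeptide of most locus coeruleus neurons, stood at 7.52, 6.94, 5.88, 6.33 and 5.52 in IP and 3.77, 3.27, 3.02, 2.91 and 3.11 in input (change 3.22, SE 0.15, adjusted p = 4.12e-12). Th stood at 9.10, 8.45, 7.26, 7.40 and 7.81 in IP and 5.52, 5.35, 5.03, 4.72 and 5.52 in input, a change of 2.78 (SE 0.14, adjusted p = 9.07e-12). For none of these 5 genes did IP and input overlap. Animal IP_501 was highest in IP for each of them.

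**Figure D1:**
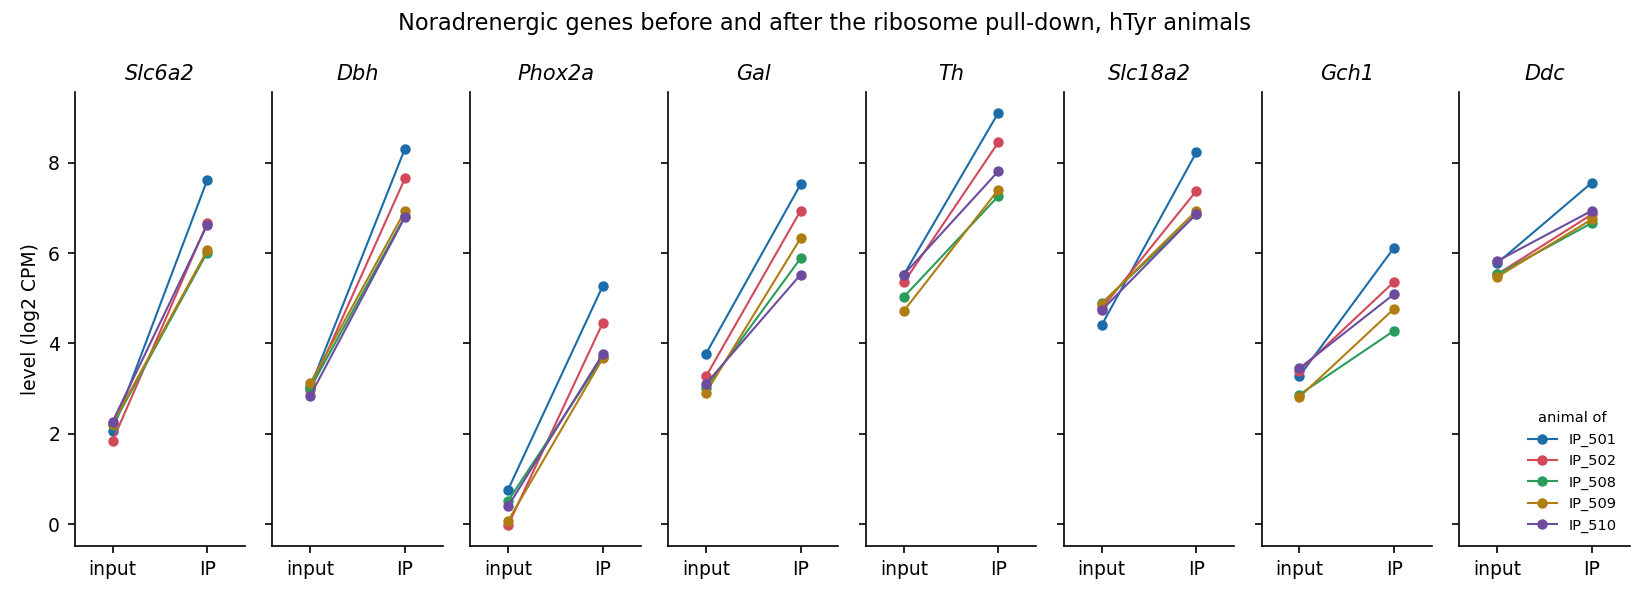
Levels in log2 CPM (y axis) of 8 noradrenergic genes in the input and IP library of each hTyr animal, with a line joining the 2 libraries of an animal. Every line rises, and animal IP_501 ends highest in each panel, at 9.10 for Th and 8.31 for Dbh.

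The mean change of the 5 markers was 4.53, 4.14, 3.18, 3.46 and 3.27. In the 6 EYFP animals it ran from 2.56 to 3.97, so the treatments overlapped. Summed over the 5 markers, the level was 1284, 795, 402, 450 and 493 CPM in IP and 73.7, 62.9, 54.8, 48.4 and 67.9 CPM in input. The input of both treatments contributes to these changes: Slc6a2 averaged 2.12 in hTyr and 3.03 in EYFP input, and 6.59 and 6.97 in IP. In bulk libraries fewer noradrenergic cells and less RNA per cell cannot be told apart.

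Across the whole table, 7440 of 12596 genes (59.1%) passed an adjusted p of 0.05, 3661 higher in IP (29.1%) and 3779 lower (30.0%). Most changes were small, with a median size of 0.52 among called genes, 46.6% of which were under 0.5. A rise of at least 1 on the log2 scale, or doubling, was called for 685 genes (5.44%) and a fall of at least 1 for 138 (1.1%). These counts were 367 and 40 with a pseudocount of 5 CPM, and the falls numbered 72 among the 75% of genes with the highest mean level and 77 without animal IP_509. The pseudocount shrinks the changes of low genes by construction, and with it Phox2a changed by 1.89, Calcr by 1.16, Dock11 by 1.15, Atf3 by 0.72, Gpr26 by -0.70 and Pcp2 by -0.37. Only 32 genes rose by at least 2, and 6 by at least 3. IP lay above input without overlap between the 5 and 5 libraries for 2611 genes (20.7%) and below it for 2115 (16.8%). Across genes, the changes of any pair of animals correlated with Pearson's r between 0.74 and 0.84, a description since genes are not independent.

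**Figure D2:**
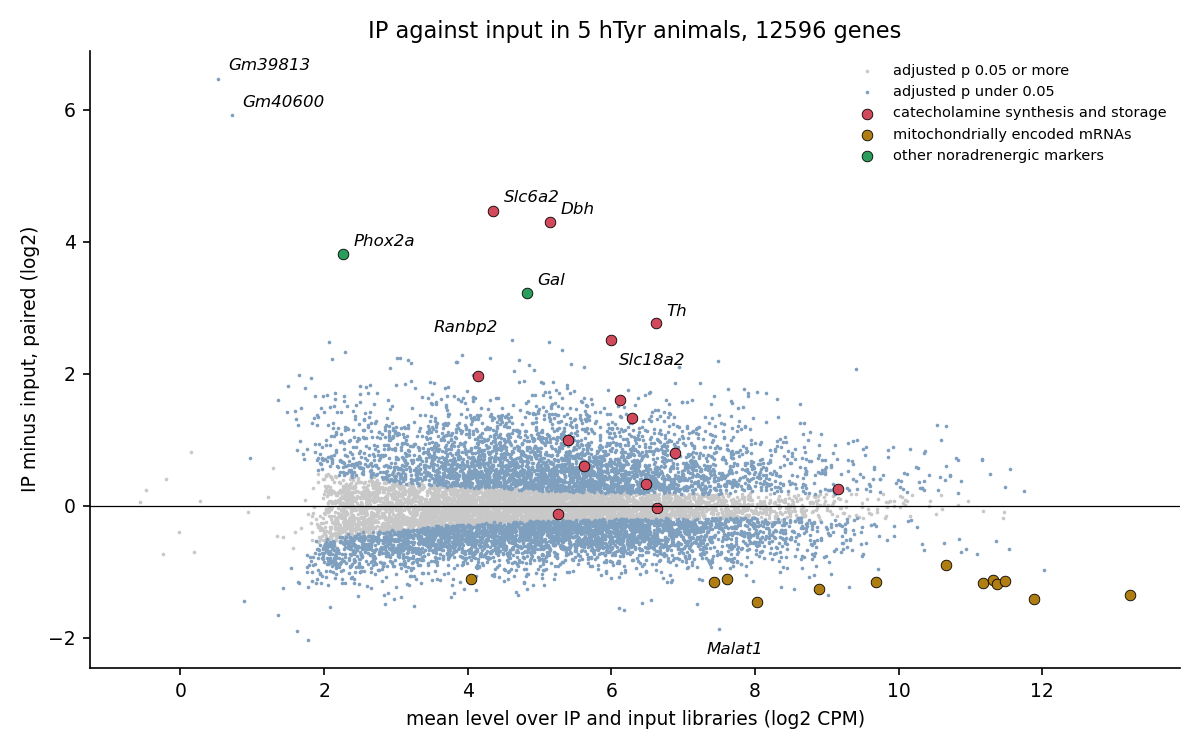
Mean level over the 10 hTyr libraries (x axis, log2 CPM) and paired IP minus input change (y axis, log2) of 12596 genes, with blue points for an adjusted p under 0.05. Slc6a2 (4.47), Dbh (4.30), Phox2a (3.82) and Gal (3.22) stand above the cloud, mitochondrially encoded mRNAs lie at -0.89 or below, and the heights of Gm39813 and Gm40600 depend on the pseudocount because their input reads are near 0.

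Of the 14 listed genes of catecholamine synthesis, storage and breakdown, 12 rose and none fell, with a median change of 1.16 against -0.04 for all genes. IP lay wholly above input for 10 of them, against 20.7% of all genes. For this and the other lists, the shares called over all genes were 29.1% higher and 30.0% lower. Some genes count in more than 1 list, such as Slc18a2, Gch1 and Calcr, so the lists are not separate sets. The enzyme and transporter steps differed in size. Slc18a2 stood at 8.22, 7.37, 6.85, 6.93 and 6.86 in IP against 4.40, 4.77, 4.89, 4.88 and 4.73 in input (change 2.51, SE 0.17, adjusted p = 6.45e-10). Gch1, which makes the first intermediate of the cofactor tetrahydrobiopterin, rose by 1.96 (SE 0.15), from 3.28, 3.40, 2.87, 2.82 and 3.45 to 6.12, 5.36, 4.28, 4.77 and 5.09. The IP levels of both genes lay above all input levels. Genes for its later steps and recycling moved less: Pcbd1 rose by 0.61, Spr by 0.32 and Qdpr by 0.26 (a call lost without animal IP_508 or IP_509 and with median centring), while Pts had a change of -0.13 that did not pass (adjusted p = 0.245) and was called, at -0.61, once the dependence of levels on the length and GC content of transcripts was taken out of every library. Ddc, which serotonin neurons also use, rose by 1.33 (SE 0.09). Of the breakdown enzymes, Maoa rose by 1.61 (SE 0.12) and Maob by 1.00 (SE 0.09). Cyb561, the vesicle membrane cytochrome that supplies electrons for Dbh, rose by 0.80.

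Among 9 noradrenergic transcription factors 3 rose and 3 fell. Besides Phox2a, Tfap2b rose by 0.44 (adjusted p = 0.0251), with a rise in 3 of 5 animals, and was not called without animal IP_501 (0.29) or animal IP_502 (0.32), without the mean-variance trend, or with the length and GC trend removed (0.26). Insm1 (-0.46) and Ebf3 (-0.29) fell, but both calls were lost without animal IP_502, and that of Insm1 also with the length and GC trend removed (-0.14). These developmental factors are also used by other cells of the hindbrain.

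Of 18 neuropeptides and related secreted proteins 8 rose and 2 fell, with a median of 0.30. Besides Gal, Calca, the precursor of calcitonin gene-related peptide, rose by 1.73 (SE 0.14), from 4.35, 4.32, 4.03, 3.95 and 4.45 in input to 6.88, 5.88, 5.55, 5.82 and 5.59 in IP. Nucb2, the nesfatin precursor, rose by 1.12 and Pdyn, the dynorphin precursor, by 0.86. Sst, the somatostatin precursor, fell by 0.28, a call lost with the length and GC trend removed (-0.16). Of 16 genes for peptide processing and dense core granules 11 rose and 1 fell (median 0.44), led by the prohormone convertase Pcsk1 (1.53), Syt4 (1.37), Cadps (0.97) and secretogranin Scg2 (0.97).

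Receptors described on locus coeruleus neurons were mixed, with 16 of 30 higher, 8 lower and a median of 0.26. The calcitonin receptor Calcr stood at 4.26, 3.46, 2.996, 2.61 and 3.22 in IP and 0.52, 1.02, 0.62, 0.77 and 1.19 in input, without overlap (change 2.49, SE 0.25, adjusted p = 6.23e-08). The nicotinic subunits Chrna6 (1.38) and Chrnb3 (1.11) and the orexin receptor Hcrtr1 (1.11) also rose. The adrenergic receptors Adra1b and Adra2c fell by 0.48 each, the call of Adra2c being lost with the length and GC trend removed (-0.04), and the receptor for corticotropin-releasing hormone, Crhr1, fell by 0.54. Among 31 pacemaker and excitability channels 11 rose and 12 fell, with a median of -0.01. The rises were led by the cation channel Trpc5 (1.34), the sodium leak channel Nalcn (1.27), the sodium channel Scn1a (1.21) and the potassium channel Kcnd2 (0.98).

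**Figure D3:**
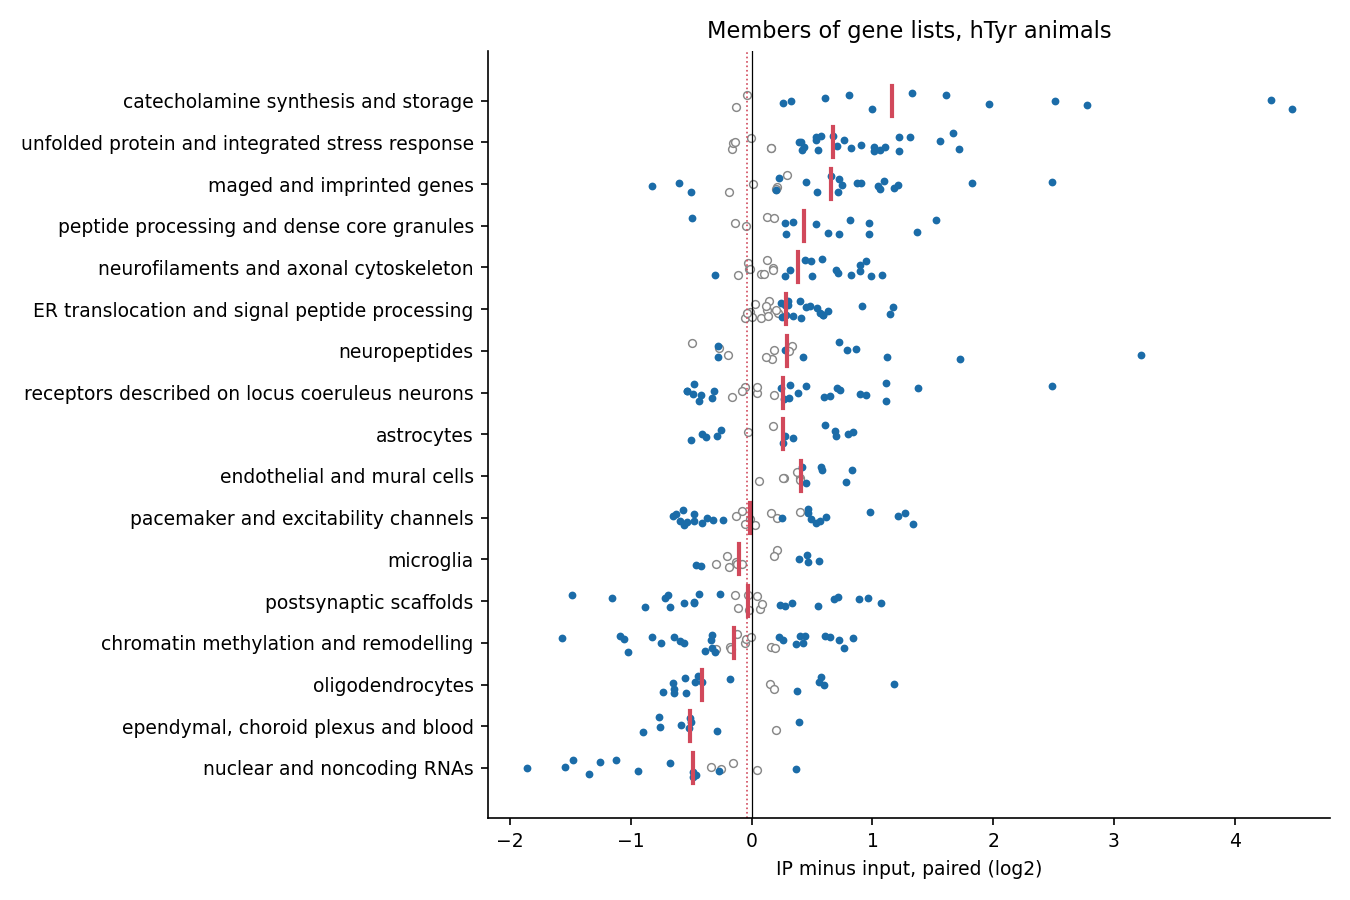
Paired IP minus input change (x axis, log2) of each member of 17 gene lists, filled for an adjusted p under 0.05 and open otherwise, with a red bar at the list median and a dotted line at the median of all genes (-0.04). Catecholamine genes have a median of 1.16 and reach 4.47, while the medians of oligodendrocyte (-0.41), ependymal, choroid plexus and blood (-0.51) and nuclear and noncoding RNAs (-0.49) lie left of 0.

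RNA of other cell types remained abundant in IP. Of 17 oligodendrocyte genes 10 fell and 5 rose (median -0.41), and their summed level was 7589 to 10583 CPM in IP and 9191 to 11174 CPM in input. Myelin basic protein (Mbp) stood at 11.10, 10.96, 11.38, 11.18 and 11.47 in IP against 11.94, 11.64, 11.90, 11.78 and 12.06 in input, a fall by 0.65 (SE 0.08). Mobp fell by 0.73 and Mog by 0.44, whereas Aspa rose by 1.18. For none of these did IP approach 0.

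Astrocyte genes were split, with 8 of 15 higher, 5 lower, a median of 0.26 and summed levels of 4238 to 5343 CPM in IP and 3636 to 4398 CPM in input. The glutamate transporter Slc1a2 rose by 0.79 and the water channel Aqp4 by 0.69, while Gfap stood at 8.91, 9.15, 9.29, 9.29 and 9.23 in IP and 9.27, 9.14, 9.14, 9.23 and 9.25 in input (change -0.03, adjusted p = 0.735). Of 14 microglial genes 4 rose and 2 fell, against 29.1% higher and 30.0% lower over all genes. Their summed level was 303 to 580 CPM in IP and 312 to 504.6 CPM in input. Of 12 endothelial and mural genes 6 rose and none fell (183 to 306 CPM in IP, 166 to 222 CPM in input). Of 8 genes of oligodendrocyte precursors 2 rose and 2 fell (261 to 319 CPM in IP, 287 to 354 CPM in input). Of 10 ependymal, choroid plexus and blood genes 8 fell and 1 rose (814 to 4490 CPM in IP, 1369 to 4909 CPM in input), among them the falls of the near-identical haemoglobin genes Hba-a1 (-0.76) and Hba-a2 (-0.77), whose reads may be shared, and the ependymal gene Ccdc153 (-0.90).

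Markers of other neurons moved in both directions. Of 5 genes of serotonin neurons 2 rose and 2 fell (median -0.26, or 0.0032 with the length and GC trend removed). Tph2, which makes serotonin in raphe neurons, rose by 1.28 (SE 0.09) and the serotonin transporter Slc6a4 by 0.35, a call lost without animal IP_502 or IP_510 and with quantile normalization or median centring. The developmental factors En2 and En1 fell by 0.67 and 0.40, the call of En1 being lost with the length and GC trend removed (-0.22), and Fev, a transcription factor of serotonin neurons, had a change of -0.26 (adjusted p = 0.212). Of the 2 glutamate transporters listed, Slc17a6 rose by 1.33 and Slc17a7 fell by 0.54, a call lost without the replicate block. Of 3 cholinergic genes Slc5a7, which takes up choline, rose by 1.49 and Chat by 0.66, whereas Slc18a3 had a change of -0.20 (adjusted p = 0.134) and was called with median centring (-0.27). Of 7 genes of GABA and glycine neurons 2 rose and 3 fell (median -0.08). Gad1 rose by 0.88 and Gad2 by 0.48, while Pvalb, a calcium-binding protein, fell by 0.48 and the glycine transporter Slc6a9 by 0.37, both without overlap. Slc32a1 was at 0.12 (adjusted p = 0.251) and was called, at 0.42, with the length and GC trend removed. Of 10 cerebellar genes 2 rose and 5 fell. The largest fall was that of Pcp2 (-1.43), which had 9 to 34 reads in IP and overlapped with input. The larger rise, that of Calb1, was 0.84 without overlap, a call lost with the length and GC trend removed (0.19). Summed levels over the lists were 107 to 153 CPM in IP and 69.9 to 98.5 CPM in input for serotonin neurons (5 genes), 366 to 521 and 279 to 466 CPM for glutamate neurons (2 genes), 52.5 to 71.4 and 34.5 to 45.9 CPM for cholinergic neurons (3 genes), 1194 to 1578 and 1300.2 to 1532 CPM for GABA and glycine neurons (7 genes), and 675 to 793 and 643 to 922 CPM for cerebellar neurons. Slc17a8 and Tmem212 were not among the genes that the authors deposited. The filter behind those genes is not given, so the lists cannot show whether a marker was absent from IP. Whether the rises come from RNA in noradrenergic cells or from other cells was not tested.

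The remaining large rises were of genes with no particular tie to noradrenaline. Ranbp2, a nuclear pore protein, stood at 5.80, 5.68, 5.74, 6.18 and 5.98 in IP and 2.78, 3.43, 3.35, 3.96 and 3.32 in input (change 2.51, SE 0.12, adjusted p = 5.81e-12). Top2b, a DNA topoisomerase of neurons, stood at 6.20, 6.05, 6.29, 6.90 and 6.42 in IP and 3.42, 3.90, 3.96, 4.23 and 3.96 in input (change 2.48, SE 0.10). Neither gene overlapped between IP and input, and their IP levels, unlike those of the markers, were highest in animal IP_509. Dock11 (2.34), the cohesin subunit Smc3 (2.25), the nucleolar proteins Nol8 (2.25), Ddx10 (2.24) and Esf1 (2.21), Zfp638 (2.21), the RNA-binding protein Matr3 (2.19), the helicase Ascc3 (2.16) and the La protein Ssb (2.14) followed.

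Transcript GC content moved with the change. Across 12112 genes with a transcript in the annotation, Spearman's rho of change with GC content was -0.44 and with length 0.11, descriptions over genes that share libraries. The median change was 0.41 in the fifth of genes with the lowest GC content and -0.25 in the fifth with the highest. Genes that rose by at least 1 had a median GC content of 42.3%, against 50.0% for all genes. Genes without a transcript in the annotation, such as Gm39813 and Gm40600, were left out of the removal of this trend. With each library's trend on length and GC removed, the number rising by at least 1 dropped from 685 of 12596 genes to 258 of 12112. Slc6a2 then changed by 4.51, Dbh by 4.43, Phox2a by 4.10, galanin by 3.33 and tyrosine hydroxylase by 2.84. The change of Ranbp2 was then 1.86, that of Top2b 1.91, Matr3 1.55 and Ssb 1.75. Some genes of other groups moved by more in proportion: the astrocyte genes Aqp4 and Slc1a2 changed by 0.22 and 0.41 after removal, the oligodendrocyte gene Aspa by 0.60, Gad2 by 0.16, Slc5a7 by 0.98 and Slc17a7 by -0.36. Scn1a then changed by 0.73, Pcsk1 by 1.01, Crhr1 by -0.35, Srp54a by 0.76, Lyst by 0.34, Cacna2d1 by 0.50 and Flrt3 by 0.60.

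Predicted genes held the rises with the lowest input. The noncoding RNA Gm39813 (chr2:57223317-57224824, GRCm38) had 589, 235, 82, 156 and 219 reads in IP and 8, 1, 0, 0 and 0 reads in their input. Gm40600 had 658, 222, 111, 94 and 190 reads in IP and 2, 7, 6, 0 and 0 in input. Each input library was deeper than the IP library of its animal, and IP and input did not overlap for either gene. No fold is given because several inputs are at 0.

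Noncoding and nuclear RNAs fell as a group, with 12 of 17 listed genes lower and 1 higher (median -0.49). Malat1, a nuclear RNA, stood at 6.85, 6.74, 6.73, 6.11 and 6.43 in IP and 8.40, 8.49, 8.33, 8.89 and 8.08 in input, a fall by 1.86 (SE 0.13, adjusted p = 4.76e-10) without overlap. Mir124a-1hg fell by 1.55, Miat by 1.48 and Meg3 by 1.35. Of 266 genes annotated as long noncoding RNA, 187 fell and 9 rose (median -0.57). Tug1 was the 1 riser of the list, by 0.37, and was 0.21 without animal IP_501 and turned to -0.33 with the length and GC trend removed. Strand use in counting is not given in the sources used here, so reads of overlapping or antisense genes cannot be told apart.

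Protein-coding genes were also among the largest falls. Kmt2d, a histone methyltransferase, stood at 5.66, 5.43, 5.28, 5.02 and 5.58 in IP and 6.89, 6.76, 7.06, 7.25 and 6.87 in input (change -1.57, SE 0.12, adjusted p = 1.43e-09). Stard9 fell by 1.51, the postsynaptic scaffold Shank1 by 1.48, Pkd1 by 1.43 and Gpr26 by 1.53. Postsynaptic scaffold genes were split, with 11 of 27 lower and 9 higher. Among 34 chromatin genes 14 fell and 11 rose, with falls of the demethylation enzyme Tet3 (-1.09), Setd1b (-1.06) and Chd3 (-1.03).

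All 13 mRNAs encoded by the mitochondrial genome fell, with changes from -0.89 (ND4) to -1.46 (ND3), a median of -1.15 and a median of -0.87 in EYFP animals. These genes were grouped after their values were seen. Mitochondrial mRNAs are translated inside the organelle on its own ribosomes. Their summed level was 1.70%, 1.85%, 3.14%, 1.15% and 1.56% of normalized reads in IP and 2.94%, 3.47%, 5.52%, 5.25% and 4.48% in input. IP was below input in every animal, though IP_508 lay above Pre_501, the input of another animal. The median fall was largest in animal IP_509 (-2.03) and smallest in animal IP_508 (-0.68). By contrast, 19 of 81 nuclear genes of the respiratory chain and ATP synthase rose and 20 fell (median -0.13, or -0.01 without animal IP_510). The shares over all genes were 29.1% higher and 30.0% lower. Ndufs1 was at 1.58 and Atp5a1 at 0.86.

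Small structural RNAs moved unevenly between animals and were also chosen after their values were seen. Rn7s1, the RNA of the signal recognition particle, had IP minus input differences of 3.60, 1.05, -0.75, 3.52 and 3.45 (mean 2.17, SE 0.41, adjusted p = 0.000152). Rn7sk had differences of 3.24, 1.22, -1.15, 2.65 and 2.51 (mean 1.69, SE 0.39, adjusted p = 0.00103). Animal IP_508 went the other way for both. Rn7s2 is near-identical to Rn7s1 and its reads may be shared.

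**Figure D4:**
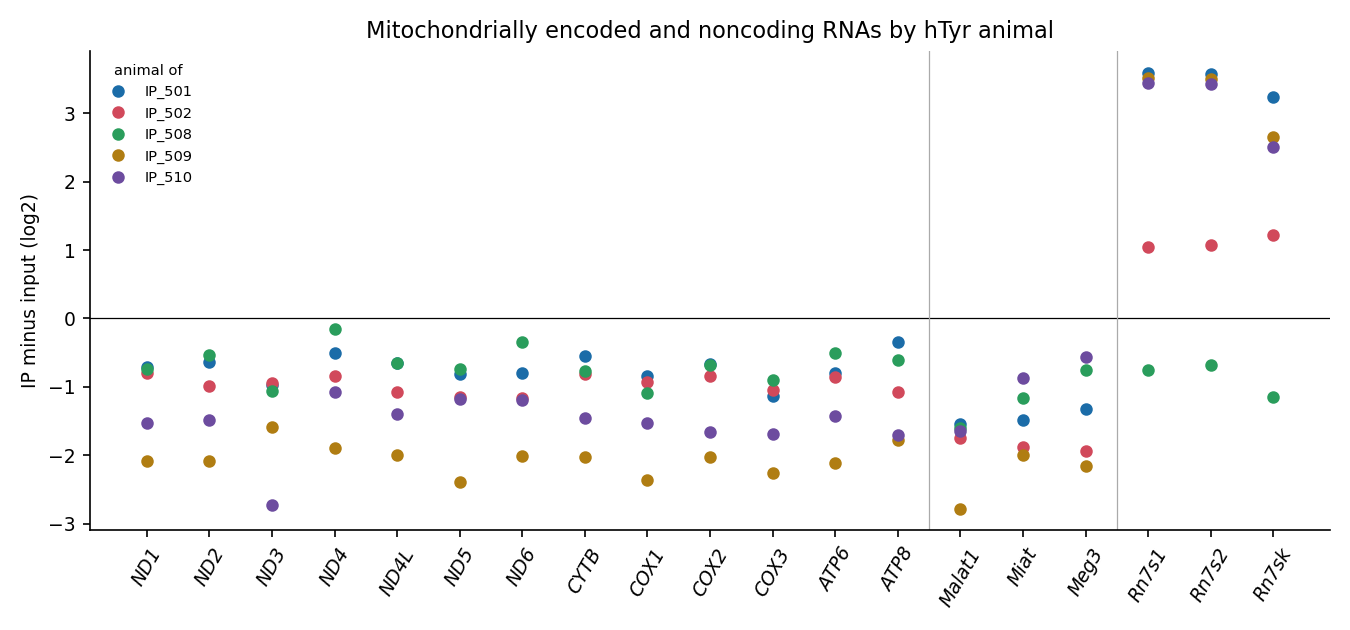
IP minus input difference (y axis, log2) in each hTyr animal, as coloured points, of 13 mitochondrially encoded mRNAs, 3 long noncoding RNAs and 3 small structural RNAs. All points of the first 2 groups lie below 0, with animal IP_509 lowest for Malat1 (-2.78), while Rn7s1 spans -0.75 to 3.60.

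Genes of the translation machinery did not move together. Of 87 cytosolic ribosomal protein genes 28 fell and 2 rose (median -0.13, or -0.03 without animal IP_510), against 30.0% lower and 29.1% higher over all genes. Rpl10a, the protein that carries the tag in these mice, had a change of -0.12 (adjusted p = 0.219). The family rule for aminoacyl-tRNA synthetases took in 25 genes, of which 17 rose and 1 fell. After 7 genes that are no synthetases were taken out by name, 17 of 18 rose, led by Dars (1.44), Eprs (1.38) and Lars (1.10). This cut was made after the values were seen. Of 52 initiation factor genes 25 rose and 11 fell, with Eif3a at 1.42. Of 31 genes for entry into the endoplasmic reticulum 19 rose and none fell (median 0.28), among them the near-identical Srp54a (1.17) and Srp54b (1.14) and the glycosylation subunit Rpn1 (0.91).

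Axonal, imprinted and disease-linked genes rose in part as well. Of 24 neurofilament and axonal cytoskeleton genes 14 rose and 1 fell (median 0.38), with Nefm at 1.08 and the tubulins Tubb2a at 0.99 and Tubb3 at 0.90. Of 25 imprinted and related genes 17 rose and 3 fell (median 0.66). Calcr, also listed as a receptor, was at 2.49, Asb4 at 1.83, Peg3 at 1.21 and Magee1 at 1.18. Of 22 genes linked to Parkinson disease 10 rose and none fell, against 29.1% higher and 30.0% lower over all genes. The retromer subunit Vps35 stood at 7.87, 7.93, 7.79, 8.20 and 8.16 in IP against 5.66, 5.92, 5.82, 5.99 and 6.06 in input (change 2.10, SE 0.08, adjusted p = 3.12e-13). Of 26 pigment and melanosome genes 10 rose and 8 fell, with a median of -0.07. The myosin Myo5a rose by 1.22 and Lyst by 0.71, while Mreg fell by 0.77.

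Genes of the unfolded protein response and the linked integrated stress response, which cells use when protein folding in the endoplasmic reticulum fails, rose in 23 of 29 cases and fell in none, with a median of 0.68. The chaperone Hspa5 stood at 9.15, 8.75, 8.58, 8.89 and 8.42 in IP and 6.75, 6.91, 7.20, 7.25 and 7.10 in input (change 1.71, SE 0.11, adjusted p = 3.23e-10). Hsp90b1 rose by 1.67 and Pdia4 by 1.22. The stress factor Atf3 stood at 3.56, 3.49, 2.60, 2.86 and 3.50 in IP and 2.03, 1.90, 2.05, 1.80 and 1.70 in input (change 1.31, SE 0.19). In EYFP animals 15 of the 29 rose and 7 fell, with a median of 0.19. The hTyr change exceeded the EYFP change for 29 of the 29, against a share of 50.7% over all genes. These genes share the same animals and are not independent, so that count is a description. In the hTyr animals the list median was 0.96, 0.85, 0.52, 0.55 and 0.50. Of the 29 genes, 3 passed the test of the difference. The list was chosen with earlier results of these animals known.

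That test asked for which genes the paired change differed between hTyr and EYFP animals, and 5 of 12596 genes (0.0397%) passed, all with a larger change in hTyr, while 874 had an unadjusted p under 0.05. Sdf2l1, an endoplasmic reticulum chaperone partner, changed by 2.19, 2.15, 1.26, 1.21 and 1.01 in the hTyr animals and by -0.16 to 0.29 in the EYFP animals (difference 1.58, SE 0.18, adjusted p = 0.000206). Ddit3, the stress factor also called CHOP, changed by 1.43, 1.16, 0.48, 0.50 and 0.54 in hTyr and by -0.53 to -0.08 in EYFP (difference 1.17, SE 0.15, adjusted p = 0.000784). Creld2, another endoplasmic reticulum protein, changed by 1.88, 1.63, 0.89, 1.20 and 0.50 in hTyr and by -0.15 to 0.33 in EYFP (difference 1.12, SE 0.19, adjusted p = 0.0188). Hmox1, which degrades haem, changed by 2.90, 1.81, 1.07, 1.41 and 0.99 in hTyr and by -0.13 to 0.64 in EYFP (difference 1.49, SE 0.25, adjusted p = 0.0188). Tnfrsf12a, a receptor induced by injury, changed by 1.27, 0.86, 0.69, 1.02 and 0.11 in hTyr and by -0.46 to 0.32 in EYFP (difference 0.97, SE 0.18, adjusted p = 0.0483). The treatments did not overlap for Sdf2l1, Ddit3, Creld2 and Hmox1, and overlapped for Tnfrsf12a through animal IP_510. Animals IP_501 and IP_502, which had the largest marker changes, also had the largest changes of Sdf2l1, Ddit3, Creld2 and Hmox1, and the part of marker recovery in this was not tested. Leaving out 1 animal at a time, Sdf2l1 and Ddit3 passed each time. Creld2 was lost without IP_501, IP_502 or IP_506 and Hmox1 without IP_502, IP_506 or IP_512, while Tnfrsf12a passed without IP_505, IP_507 or IP_510 and was lost without any of the others. The count was lowest, at 2, without IP_502 or IP_506 and highest, at 8, without IP_509. Without the replicate block, or without the mean-variance trend, Sdf2l1 was the 1 gene that passed.

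**Figure D5:**
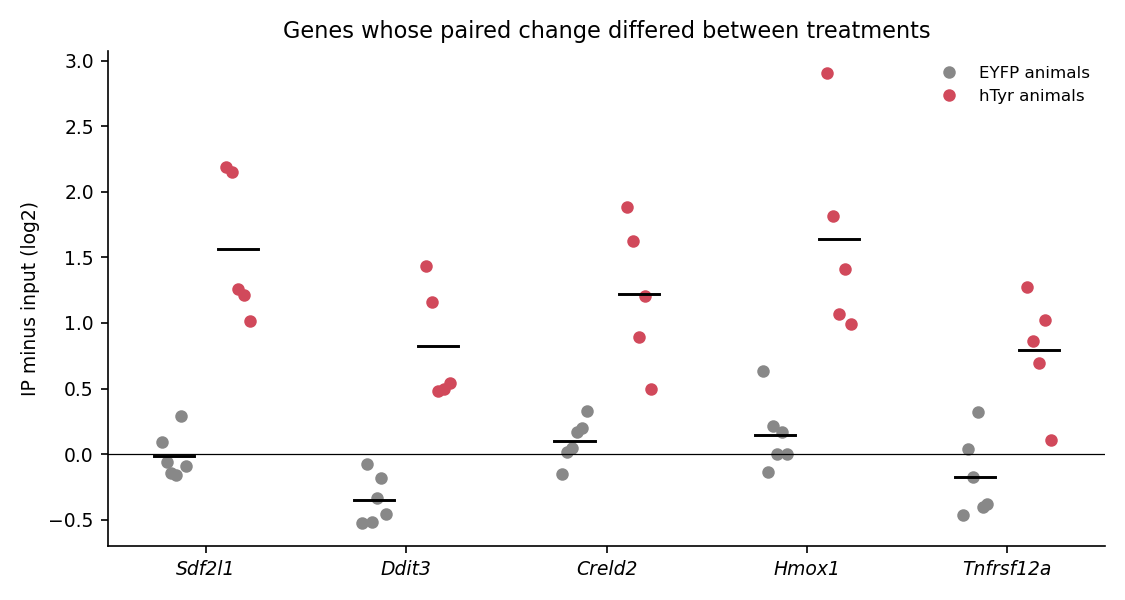
IP minus input difference (y axis, log2) of the 5 genes whose paired change differed between treatments, with 1 point per animal (6 EYFP in grey, 5 hTyr in red) and a black line at the mean. The Sdf2l1 points lie between 1.01 and 2.19 in hTyr animals and between -0.16 and 0.29 in EYFP animals.

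Other stress lists were mixed in hTyr animals. Of 19 targets of the antioxidant factor NRF2 12 rose and 2 fell (median 0.31, largest rise 1.64). Among them Prdx1 was at 0.95 and Pgd at 0.89, while the ferritin gene Fth1 fell by 0.97 (-0.55 with quantile normalization). Of 15 p53 targets 4 rose and 3 fell, against 29.1% higher and 30.0% lower over all genes, with Plk2 at 0.72 and Cdkn1a at 0.50. Of 20 axon injury genes 8 rose, by up to 1.31, and 3 fell. Among the rises were Cacna2d1 (1.08) and Flrt3 (0.97).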

How the data were processed

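RNA sequencing libraries were made by a service company, per the labels. Reads were processed with STAR and featureCounts on mm10, per the submitters' processing notes; versions, annotation, filter and normalization are not given in the sources used here. The authors deposited log2 values of CPM for 12596 genes in 22 libraries, with a lowest value of -3.21. From these values whole reads were recovered for 100% of entries (tolerance 0.1 reads), which gave the depths. Totals cover reads in the table only and speak of counting error only.

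The 10 hTyr libraries were tested in R 4.3.3 by limma 3.58.1, with a mean-variance trend and the animal as a block, and p-values were adjusted by Benjamini-Hochberg over 12596 genes at 0.05. A second fit over 22 libraries tested the difference of the paired change between treatments. The pairing comes from the animal number in the titles. Deviations from the group means correlated between the IP and input of an animal at 0.28 to 0.45, against at most 0.19 for other animals. Without the replicate block 6853 genes passed. Each p-value sets a mean paired change, or its difference, against its spread between these animals, which limma moderates with values from all genes. On simulated counts with 100 genes changed 4-fold and 100 changed 2-fold, the test called 100% of each, and 5.21% of its calls were unchanged genes. The simulation held no difference between animals in the pull-down and far fewer changed genes than were called here, so it cannot speak to those features.

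Length and GC content came from GENCODE M21 by symbol (12112 genes, 96.2%), and promoters from RefSeq GRCm38.p6. Named genes were the markers, the catecholamine list, the 20 largest rises and 12 largest falls with no overlap, the same sign in all 5 animals and a mean of at least 1 log2 CPM in the higher group (predicted genes by the largest 2), up to 4 called members of each list, the first 3 markers of each cell type and the genes called for the treatment difference. A few genes that the rule names are not reported here. Others were named after their values were seen: further members of lists, mitochondrially encoded mRNAs, Rn7s1, Rn7s2, Rn7sk and Rpl10a. The group of 18 synthetases was also cut by name after values were seen. The comparison, its markers and the lists were chosen with earlier results of these data known. Figures were drawn with Python and matplotlib.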

Additional observations from a re-analysis of the deposited data

Results flagged for a closer look

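Single animals stood apart from the other 4 in the paired change of some genes. Animal IP_509 was lowest for Malat1 (-2.78, next -1.75), Mobp (-1.10), Mreg (-1.23), ND5 (-2.39) and Zmat3 (-0.88), and highest for Plk2 (0.93) and Mrpl39 (0.84). Animal IP_501 was highest for Ascc3 (2.85), Eprs (1.69) and Ebf3 (-0.0056) and lowest for Slc32a1 (-0.30), which was at or above 0.12 in the other 4. Animal IP_510 had the smallest fall of LOC108169077 (-0.93) and the lowest change of Rpl10a (-0.49, next -0.05). Among list medians, animal IP_502 was highest for locus coeruleus receptors (0.33), animal IP_501 for p53 targets (0.34), and animal IP_510 was lowest for cerebellar neurons (-0.50) and cytosolic ribosomal proteins (-0.55). These are 17 of 245 sets of 5 values, where chance flags about 1 in 20.

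The paired change differed between hTyr and EYFP animals, by limma's test of the difference, for Sdf2l1 (1.58), Ddit3 (1.17), Creld2 (1.12), Hmox1 (1.49) and Tnfrsf12a (0.97).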

How the results depend on the processing

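The count of genes that differed between IP and input ran from 5908 (filter on low values) to 8075 (shared spread) over the alternatives, and from 6624 to 7179 without 1 animal, against 7440. Without the replicate block 6853 passed, 6834 of them shared with the paired fit. Genes higher by at least 1 numbered 367 with a pseudocount of 5 CPM and 258 with the length and GC trend removed. Genes lower by at least 1 numbered 72 with the filter, 40 with the pseudocount and 77 to 182 without 1 animal, the lowest without animal IP_509. The cause was not tested. By construction, the filter and the length and GC removal test fewer genes, and the pseudocount shrinks low genes.

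The count for the treatment difference was 1 without the replicate block, 1 without the trend, 3 with the filter, and 2 to 8 without 1 animal. Of 200 genes examined, 2 turned sign while called in the reported fit or the alternative, P2ry12 (-0.0052) and Tug1 (-0.33). Both did so under 1 alternative, length and GC trends taken out with the replicate block. A call was lost in 46 cases over 21 genes and gained in 9 cases over 6 genes. The other 2880 values kept their call status, and turns of sign among genes called in neither fit were not counted. COX1, the most abundant gene, was set to 0 by quantile normalization. With the length and GC trend removed, the median of serotonin genes turned from -0.26 to 0.0032, outside the range of the 5 animal medians (-0.34 to -0.0086). Those of microglial genes (-0.10 to 0.02) and mitochondrial ribosomal protein genes (0.012 to -0.015) turned as well. Turns of list medians under the other alternatives were not counted. Median centring moved the median of all genes from -0.04 to -0.10 and the share of higher genes among calls from 49.2% to 41.5%. The number of animals, 5, limits the precision.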
